A study of Mus musculus with 2 samples.

Results

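The 9 genes described here handle phosphatidylcholine in the liver: the lysophospholipid transporter gene *Mfsd2a*, the choline kinases *Chka* and *Chkb*, the CDP-choline synthesis gene *Pcyt1a*, the methyltransferase *Pemt*, the lysophosphatidylcholine acyltransferases *Lpcat1*, *Lpcat2* and *Lpcat3*, and the hepatic lipase gene *Lipc*. They were chosen from their function and with their folds in these libraries known, by matching their symbols to the 53342 rows of each deposited liver file, which hold 53241 distinct symbols. Each of the 9 symbols had 1 row. All 9 passed the expression minimum, and they are among 13400 genes tested. The folds given for them below are therefore descriptions of genes picked with those folds in view.

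Liver mRNA of 1 control and 1 iFIRKO sample of male mice was sequenced. The iFIRKO mice carried Adipoq-CreERT2 and Insr flox/flox, so that tamoxifen starts a Cre recombinase driven by the adiponectin promoter and the insulin receptor gene is deleted in adipocytes and not in hepatocytes. The labels give the control genotype as WT, whereas the study's methods describe IR flox/flox mice without naming a Cre. Both groups were 7 weeks old, both were injected intraperitoneally with tamoxifen at 100 mg/kg on 5 days, and both livers were collected 3 days later. Whether 1 mouse or several gave each library is not given in the sources used here.

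Phosphatidylcholine is the most abundant phospholipid of mammalian membranes, of bile and of the shell of lipoproteins. Hepatocytes make it from choline by the CDP-choline (Kennedy) pathway and also by methylating phosphatidylethanolamine, and they remodel its acyl chains by removing and re-adding a fatty acid. MFSD2A is a sodium-dependent carrier of lysophosphatidylcholine, best known for the uptake of docosahexaenoic acid across the blood-brain barrier, and its liver transcript is known to be higher in fasting.

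The promoter sequences of the 3 genes past the fold threshold used below are shown first, as the stretch before the start site of the RefSeq entry on GRCm38.p6. The *Lpcat1* stretch is cut at the GENCODE start and leaves out the bases up to its RefSeq start. That of *Mfsd2a* is chr4:122961189-122961438 on the minus strand, that of *Lpcat1* is chr13:73466981-73467196 on the plus strand and that of *Lpcat2* is chr8:92855083-92855332 on the plus strand. Capitals mark AGGTCA, the hexamer that nuclear receptors bind, CCAAT, which reads ATTGG where it lies on the other strand, and GGGCGG, the core of a GC box.
Mfsd2a: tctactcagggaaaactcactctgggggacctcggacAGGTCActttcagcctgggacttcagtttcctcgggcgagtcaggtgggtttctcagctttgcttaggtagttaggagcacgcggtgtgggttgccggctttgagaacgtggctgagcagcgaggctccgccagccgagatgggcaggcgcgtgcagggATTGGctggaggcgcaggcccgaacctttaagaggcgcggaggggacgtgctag
Lpcat1: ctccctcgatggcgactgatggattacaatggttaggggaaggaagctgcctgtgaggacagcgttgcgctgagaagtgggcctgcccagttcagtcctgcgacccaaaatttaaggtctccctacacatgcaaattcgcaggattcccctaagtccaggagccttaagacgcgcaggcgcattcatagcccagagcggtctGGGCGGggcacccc
Lpcat2: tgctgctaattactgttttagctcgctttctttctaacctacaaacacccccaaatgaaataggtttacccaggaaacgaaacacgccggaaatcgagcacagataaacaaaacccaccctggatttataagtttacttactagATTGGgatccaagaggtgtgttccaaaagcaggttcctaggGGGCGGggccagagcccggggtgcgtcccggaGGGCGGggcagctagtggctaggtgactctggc

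The *Mfsd2a* sequence held 1 AGGTCA and 1 CCAAT in reverse, and no GGGCGG. That of *Lpcat2* held 1 CCAAT in reverse and 2 GGGCGG, and that of *Lpcat1* held 1 GGGCGG in the stretch shown. Another GGGCGG of *Lpcat1*, in reverse, lies 13 to 8 bases before the RefSeq start, in the part not shown. Searched on both strands in the 250 bases before the start, AGGTCA was present in 14.0% of 32851 RefSeq promoters and, among the 9 genes, in those of *Mfsd2a* and *Lipc*. CCAAT was present in 33.8% of the promoters and in those of 7 of the 9 genes, and GGGCGG in 32.7% and also in 7 of the 9. For promoters of tested genes alone, the shares were 11.6%, 35.6% and 55.1% in the same order. *Pemt* and *Lipc* have 2 promoter entries each and *Pcyt1a* has 3, and a match in any entry was counted. The E-box CACGTG (6.02% of promoters), the forkhead motif TGTTTAC (3.17%) and the cAMP response element TGACGTCA (1.55%) had no match in any of the 9. These matches describe letters in a window and no binding was measured.

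The deposited values, log2 normalized read counts, were put back on the linear scale and are called normalized reads here. The control library summed to 42003900 normalized reads, an estimated 21138292 read pairs, and the iFIRKO library to 41579630, an estimated 20652476 pairs. A fold is the iFIRKO value over the control value with 4.18 normalized reads (0.1 CPM) added to both, and a gene was tested where the larger of its values reached 41.8 normalized reads, which is 1 CPM of the mean library total. Genes past 1.5-fold, the threshold of the study, are called higher or lower. With 1 library per genotype there is no replicate check and no p-value. Each interval is a 95% exact Clopper-Pearson interval of the ratio of estimated read pairs without the added value, covers counting error only, and compares the libraries and not the genotypes. *Insr* itself, whose deletion is limited to adipocytes, was at 4246 normalized reads in the control and 3692 in iFIRKO. *Alb*, the albumin gene that marks hepatocytes, had 4167150 and 3944160.

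Of the 9 genes, *Mfsd2a* was higher, *Lpcat1* and *Lpcat2* were lower, and the other 6 lay within 1.5-fold. Among all tested genes 4.46% were called higher and 7.28% lower. Since these folds were known when the genes were chosen, nothing is read from the comparison with these shares. The median log2 fold of the 9 was -0.20, against 0.008 over all tested genes. The interval lay above 0 for 2 genes, below 0 for 6 and across 0 for *Pemt*. The summed level of the 9 genes was 23628 normalized reads in the control and 23739 in iFIRKO. This sum adds reads of transcripts of different lengths, and nothing is read from its near equality.

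**Figure D1:**
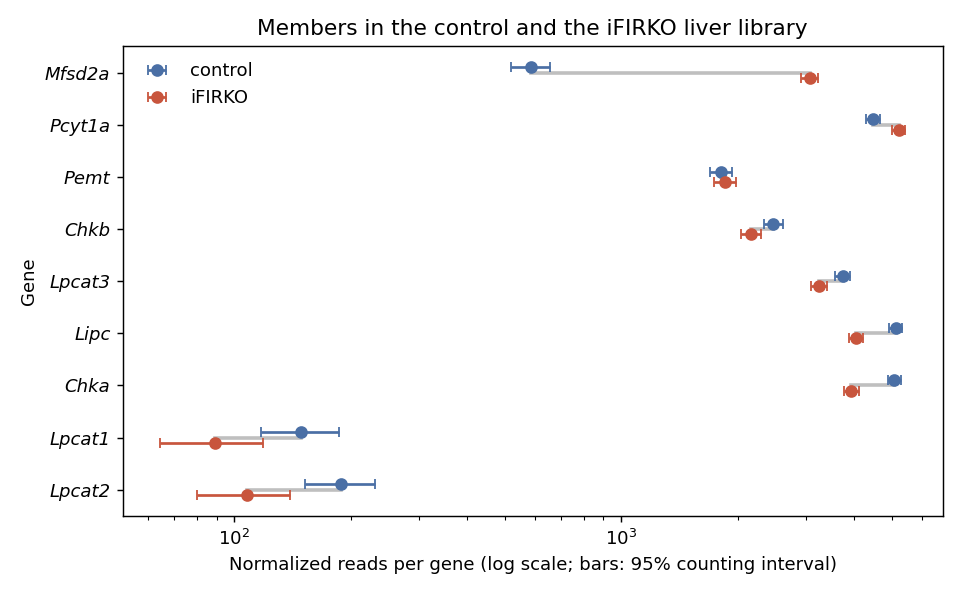
Normalized reads of the 9 genes in the control and the iFIRKO liver library on a log axis, 1 point per library with its exact 95% Poisson interval and a grey line joining the libraries of a gene. *Mfsd2a* has 585 normalized reads in the control and 3076 in iFIRKO, whereas *Lpcat1* and *Lpcat2* lie below 200 in both libraries.

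*Mfsd2a*, the lysophosphatidylcholine carrier, was at 584.7 normalized reads in the control and 3076 in iFIRKO, which correspond to 13.99 and 73.6 CPM. The log2 fold was 2.39 (interval 2.22 to 2.58), and the plain ratio was 5.26 (interval 4.64 to 5.99). It rested on 294 estimated read pairs in the control and 1528 in iFIRKO, so counting error is small beside the difference. *Mfsd2a* (ENSMUSG00000028655.11) lies at chr4:122946850-122961188 on the minus strand of GRCm38 in GENCODE M21, and its exons overlap no exon of another gene and share no 50-base stretch with another gene. 

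In order of log2 fold, *Mfsd2a* stood at position 9 from the top of the 13400 tested genes, and at position 3 of the 8380 with at least 10 CPM in 1 library, of which 2.42% were more than 1.5-fold higher. The genes of that level with the nearest log2 fold were *Elovl3*, a very long chain fatty acid elongase, *G0s2*, an inhibitor of adipose triglyceride lipase, and *Ly6d*, a GPI-anchored surface protein. *Elovl3* had 305 and 1606 normalized reads (log2 fold 2.38), *G0s2* 510 and 2623 (2.35) and *Ly6d* 136 and 663 (2.25). With 1 library per genotype this likeness compares only 2 values per gene.

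**Figure D2:**
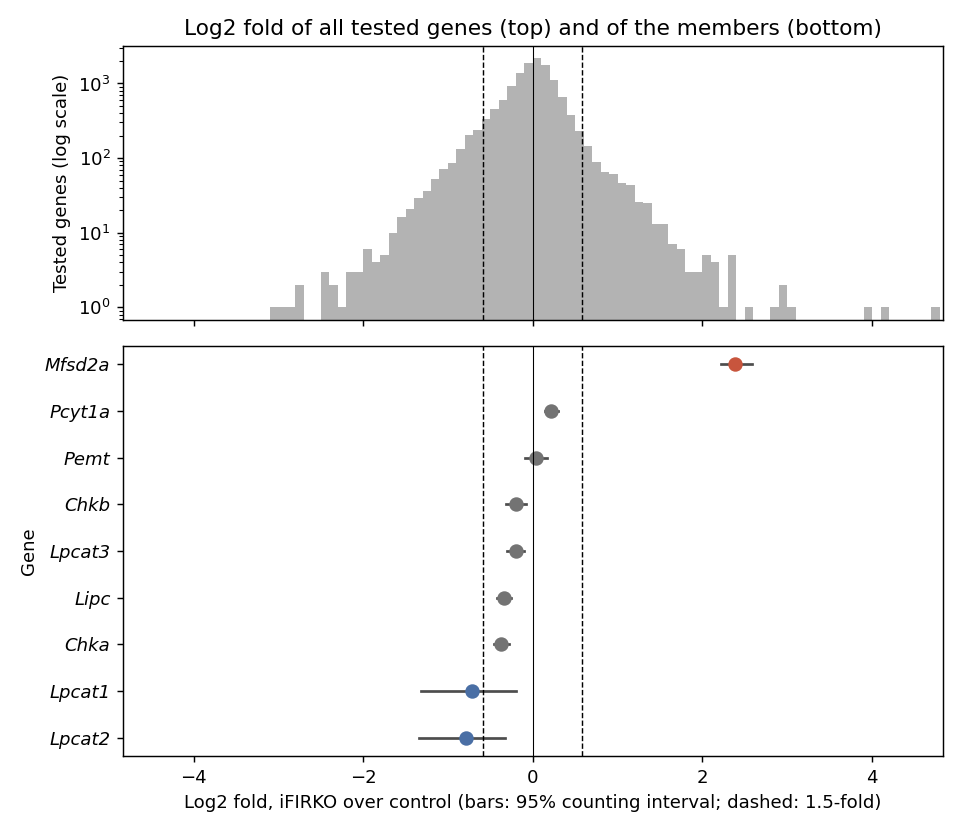
Top, number of tested genes per 0.1 of log2 fold on a log axis. Bottom, log2 fold of each of the 9 genes with its 95% counting interval, with dashed lines at 1.5-fold. *Mfsd2a* at 2.39 stands apart from the other 8, which lie between -0.78 and 0.22.

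Of 12 genes in a list of lysophospholipid and choline carriers, 9 were tested, 1 was higher, namely *Mfsd2a*, and none was lower. Their median log2 fold was 0.07, while 4.46% of all tested genes were called higher. The choline transporter gene *Slc44a1* had 1784 normalized reads in the control and 1453 in iFIRKO (log2 fold -0.30). *Spns1*, which exports lysophospholipids from lysosomes, had 1104 and 1158 (0.07). The closest relative, *Mfsd2b*, a sphingosine-1-phosphate exporter of blood cells, had 33.3 and 38.3 normalized reads and did not reach the minimum.

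In the choline branch of the Kennedy pathway the kinase genes and *Pcyt1a* lay within 1.5-fold, with the kinases below the control and *Pcyt1a* above it, and *Chpt1* of the last step was called higher. *Chka*, the choline kinase gene of the first step (chr19:3851773-3894369, plus strand), had 5078 normalized reads in the control and 3931 in iFIRKO, 77.4% of the control (log2 fold -0.37, interval -0.45 to -0.28). *Chkb*, the second choline kinase gene (chr15:89426360-89429908, minus strand), had 2475 and 2165, 87.5% of the control (-0.19, interval -0.31 to -0.07). Both kinases were thus somewhat lower, but short of 1.5-fold. The value of *Chkb* is uncertain, since 50.7% of its exon bases lie on the same strand in the readthrough gene *Gm44502* and 49.8% of its 50-base stretches occur in another gene.

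*Pcyt1a* encodes the enzyme that turns phosphocholine into CDP-choline, the rate-limiting step (chr16:32430921-32475070, plus strand). It had 4480 normalized reads in the control and 5219 in iFIRKO, a ratio of 1.16 (log2 fold 0.22, interval 0.14 to 0.30), and 7.73% of its 50-base stretches occur elsewhere. The last step, the transfer of phosphocholine to diacylglycerol, is made by the products of *Chpt1* and *Cept1*. *Chpt1* had 5474 normalized reads and 8969 (log2 fold 0.71, interval 0.64 to 0.78), and was called higher. *Cept1*, which also makes phosphatidylethanolamine, had 3198 and 3051 (-0.07).

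*Pemt* encodes the phosphatidylethanolamine N-methyltransferase, which in mammals is found mainly in the liver (chr11:59970614-60046489, minus strand). It had 1809 normalized reads in the control and 1858 in iFIRKO, with a log2 fold of 0.04 and an interval from -0.10 to 0.17. It is the only one of the 9 whose interval held 0. Its plain ratio had an interval from 0.936 to 1.13.

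The wider CDP-choline and CDP-ethanolamine list held 13 genes, *Chka*, *Chkb*, *Pcyt1a* and *Pemt* among them. Of 12 tested, 2 were higher and none lower, with a median log2 fold of 0.13, while 4.46% of all tested genes were higher. The higher ones were *Chpt1* and *Etnppl*, whose product breaks down phosphoethanolamine. *Etnppl* had 6911 and 15274 normalized reads (log2 fold 1.14, interval 1.09 to 1.20). The ethanolamine genes of highest level were near the control, *Pcyt2* with 18733 and 17153 (-0.13) and *Etnk2* with 18599 and 16951 (-0.13).

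Supply of methyl groups for PEMT and choline oxidation showed no called gene among 14 tested (median log2 fold 0.03). *Bhmt*, the betaine-homocysteine methyltransferase, had 309884 and 320151 normalized reads (0.05). *Mat1a*, which makes S-adenosylmethionine in the liver, had 112427 and 146791 (0.38). Synthesis of phosphatidylserine, phosphatidylinositol and cardiolipin had none called of 11 tested (median 0.06), where the highest levels were those of the CDP-diacylglycerol synthase *Cds2*, with 4692 and 3634 (-0.37), and the cardiolipin synthase *Crls1*, with 2771 and 2886 (0.06). The phosphatidate phosphatases had none called of 6 (median -0.08), where *Lpin2* had 9304 and 8837 (-0.07) and *Lpin1* had 6050 and 6799 (0.17).

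The lysophosphatidylcholine acyltransferases re-esterify lysophosphatidylcholine. *Lpcat3*, the main liver form, which prefers polyunsaturated acyl chains (chr6:124663027-124704418, plus strand), had 3734 normalized reads in the control and 3246 in iFIRKO, 86.9% of the control (log2 fold -0.20, interval -0.30 to -0.11). The gene *Emg1* on the opposite strand shares 10.2% of its exon bases and had 1487 and 1405 normalized reads. How the authors' counting used strand is not given in the sources used here.

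*Lpcat1*, known for the saturated phosphatidylcholine of lung surfactant (chr13:73467197-73516422, plus strand), had 149.1 normalized reads in the control and 89.0 in iFIRKO. The log2 fold was -0.72 (interval -1.32 to -0.19), and the iFIRKO level was 59.7% of the control. *Lpcat2*, known from inflammatory cells, where it also makes platelet-activating factor (chr8:92855339-92919279, plus strand), had 188.3 and 107.7 normalized reads, with a log2 fold of -0.78 (interval -1.34 to -0.32) and 57.2% of the control. These lower calls rest on few reads, 75 and 44 estimated pairs for *Lpcat1* and 95 and 53 for *Lpcat2*, and both intervals reach folds under 1.5. Of the 1959 genes with a mean level of 2 to 5 CPM, 11.7% were called lower. With 1 CPM added in place of 0.1, *Lpcat1* had a log2 fold of -0.54 and was no longer called, and neither gene reached a minimum of 5 CPM.

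Summed marker levels of immune and endothelial cells were also lower in iFIRKO, whereas those of stellate and erythroid cells were higher. Among all tested genes 7.28% were called lower, and 11.7% among those with a mean level of 2 to 5 CPM. Of 10 Kupffer cell and macrophage markers 7 were called lower, and their summed level was 39422 normalized reads in the control and 25389 in iFIRKO (64.4%). The summed level of 6 neutrophil markers was 655 and 242 (37.0%), with 3 of 3 tested called lower. That of 6 B cell markers was 808 and 368 (45.6%), with 4 of 5 tested lower, and that of 8 T and NK cell markers was 244 and 134 (54.8%), with both tested genes lower. Those 2 T and NK cell calls rest on 25 estimated read pairs or fewer per library, their intervals span 0, and none is left with 1 CPM added or with a minimum of 5 CPM. Of 8 endothelial markers 2 were lower, with a sum at 76.8% of the control. No marker of these 5 lists was listed at 0 in both libraries. The part of these cells in the levels of *Lpcat1* and *Lpcat2* was not tested. In whole liver, fewer cells of a type and less RNA per cell cannot be told apart.

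Hepatocyte markers summed to 94.4% of the control, and stellate markers to 107.5%. *Alb* makes up most of the hepatocyte sum. Of the 8 hepatocyte markers 3 had a log2 fold above 0 and 5 below (median -0.06). The 1 called lower, *Apoa1*, had 168382 and 87600 normalized reads, 52.0% of the control. Of the 7 erythroid markers 6 were tested and all 6 were higher, while 4.46% of all tested genes were. Their sum was at 200.5% of the control. Of the adipocyte markers *Lep* and *Retn* were listed at 0 in both libraries, and *Adipoq*, *Plin1* and *Cfd* were at 0 in the control and at no more than 8.1 normalized reads in iFIRKO. Of the other adipocyte markers, *Fabp4*, which endothelial cells and macrophages also express, had 469.9 and 469.0 normalized reads, and the lipid droplet gene *Cidec* had 17.9 and 108.4, the one adipocyte marker called higher.

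**Figure D3:**
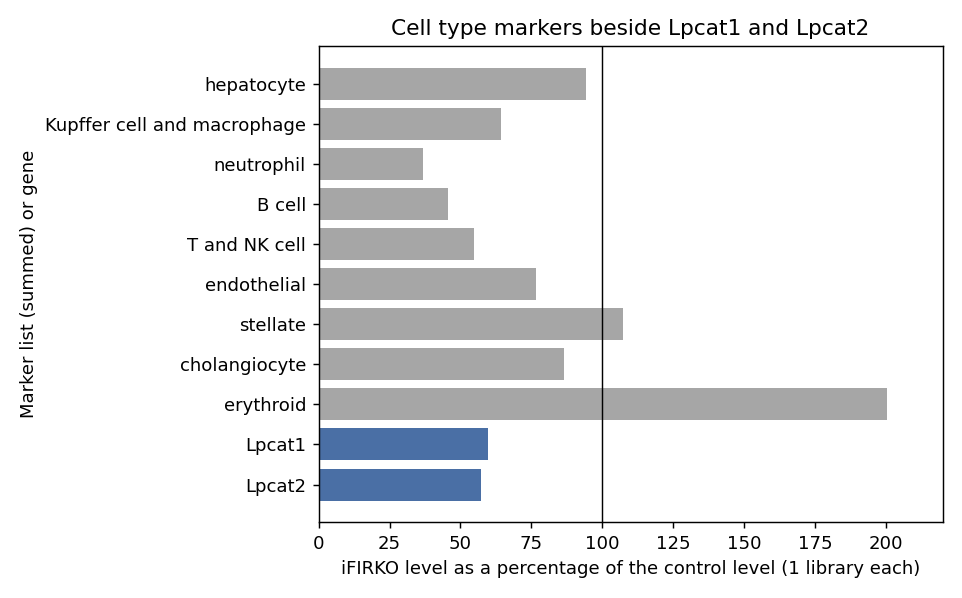
Summed iFIRKO level of each cell marker list, and the iFIRKO level of *Lpcat1* and *Lpcat2*, as a percentage of the control level, with 1 library each and a line at 100. *Lpcat1* at 59.7% and *Lpcat2* at 57.2% lie between the T and NK cell markers at 54.8% and the Kupffer cell and macrophage markers at 64.4%. The cholangiocyte, hepatocyte, stellate and erythroid lists lie at 86.4%, 94.4%, 107.5% and 200.5%. The placement is not exact, since the counting interval of the *Lpcat1* plain ratio runs from 0.40 to 0.87.

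The list of 17 lysophospholipid and glycerol phosphate acyltransferases had 13 tested genes, with a median log2 fold of 0.03. In it 1 gene was higher and 3 were lower, while 4.46% of all tested genes were higher and 7.28% lower. The higher one was *Gpam*, the mitochondrial glycerol-3-phosphate acyltransferase, with 4124 and 6577 normalized reads (0.67). The lower ones were *Lpcat1*, *Lpcat2* and *Lpcat4*, the last with 45.3 and 27.9 (-0.63, interval -1.77 to 0.32), close to the minimum and resting on 23 and 14 read pairs. The count of lower genes in the list was 1 with 1 CPM added and 0 with a minimum of 5 CPM. The most abundant acyltransferases lay within 1.5-fold, *Lpgat1* with 13832 and 14816 (0.10) and *Agpat2* with 9905 and 12505 (0.34, interval 0.28 to 0.39). Per kilobase of exon in the control, the level of *Lpcat3* was 35.5 times that of *Lpcat1* and 20.6 times that of *Lpcat2*.

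*Lipc* encodes hepatic lipase, which hydrolyses phospholipids and triglycerides of lipoproteins in the liver sinusoids (chr9:70798128-70952226, minus strand). It had 5129 normalized reads in the control and 4048 in iFIRKO, 78.9% of the control (log2 fold -0.34, interval -0.43 to -0.26). It shares no 50-base stretch with another gene. The related endothelial lipase gene *Lipg*, a phospholipase of high density lipoproteins, stood on the other side, with 230 and 687 normalized reads (log2 fold 1.56, interval 1.27 to 1.89) and a plain ratio of 2.99.

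The 16 genes in the lipoprotein and bile phospholipid list, *Lipc* and *Lipg* included, were all tested (median log2 fold -0.06). Of these 1 was higher and 3 were lower, while 4.46% of all tested genes were higher and 7.28% lower. The lower ones were the lipoprotein lipase gene *Lpl* with 1564 and 1029 (-0.60), the HDL receptor gene *Scarb1* with 6672 and 4267 (-0.64) and the sterol exporter gene *Abcg1* with 372 and 207 (-0.83). *Abcb4*, which moves phosphatidylcholine into bile, had 8400 and 12204 (0.54) and lay within 1.5-fold. The genes of highest level were *Stard10*, a phospholipid transfer protein, with 26644 and 29102, and *Lcat*, which esterifies plasma cholesterol from phosphatidylcholine, with 12960 and 12766 (-0.02).

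Among 25 phospholipases and lysophospholipases 24 were tested, none was higher and 4 were lower, with a median log2 fold of -0.14, while 7.28% of all tested genes were lower. *Gpcpd1*, which cleaves glycerophosphocholine, had 10246 and 6071 normalized reads (-0.75, interval -0.82 to -0.69). *Pld4*, expressed in macrophages and dendritic cells, had 820 and 467 (-0.81). The others were *Pla2g4a*, a cytosolic phospholipase A2, with 147 and 86.4 (-0.74), and the glycerophosphodiesterase *Gdpd1* with 67.4 and 33.0 (-0.94). These last calls rest on few read pairs, 74 and 43 for *Pla2g4a* and 34 and 16 for *Gdpd1*, and the count of lower genes in the list was 2 with 1 CPM added and 2 with a minimum of 5 CPM. *Pnpla8*, a calcium-independent phospholipase of mitochondria and peroxisomes, had 4978 and 5622 (0.18).

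Levels of the 9 genes were compared with one another per kilobase of the main coding transcript. In the control the order was *Lipc* (2671 normalized reads per kilobase), *Chka* (2190), *Pemt* (1883), *Lpcat3* (1637), *Chkb* (1450), *Pcyt1a* (936), *Mfsd2a* (272), *Lpcat2* (67.0) and *Lpcat1* (40.6). No 2 neighbours in this order had overlapping Poisson intervals. *Mfsd2a* was thus at position 7 of 9, ahead of *Lpcat2* and *Lpcat1*.

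In iFIRKO the order was *Lipc* (2108), *Pemt* (1934), *Chka* (1695), *Mfsd2a* (1430), *Lpcat3* (1423), *Chkb* (1268), *Pcyt1a* (1090), *Lpcat2* (38.3) and *Lpcat1* (24.2). *Mfsd2a* had moved to position 4, with an interval that overlapped that of *Lpcat3*. *Lipc* and *Pemt* overlapped as well, as did *Lpcat2* and *Lpcat1*. The order depends on the length used, as for *Chka*, whose annotated exons together span 12024 bases against 2319 in the main transcript. Per kilobase of all annotated exons in the control, *Lpcat3* (1143) stood ahead of *Pemt* (860) and *Chka* (422). Per kilobase of all annotated exons *Mfsd2a* went from position 7 with 260 normalized reads to position 2 with 1367, or from 10.9% to 72.6% of the *Lipc* level.

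**Figure D4:**
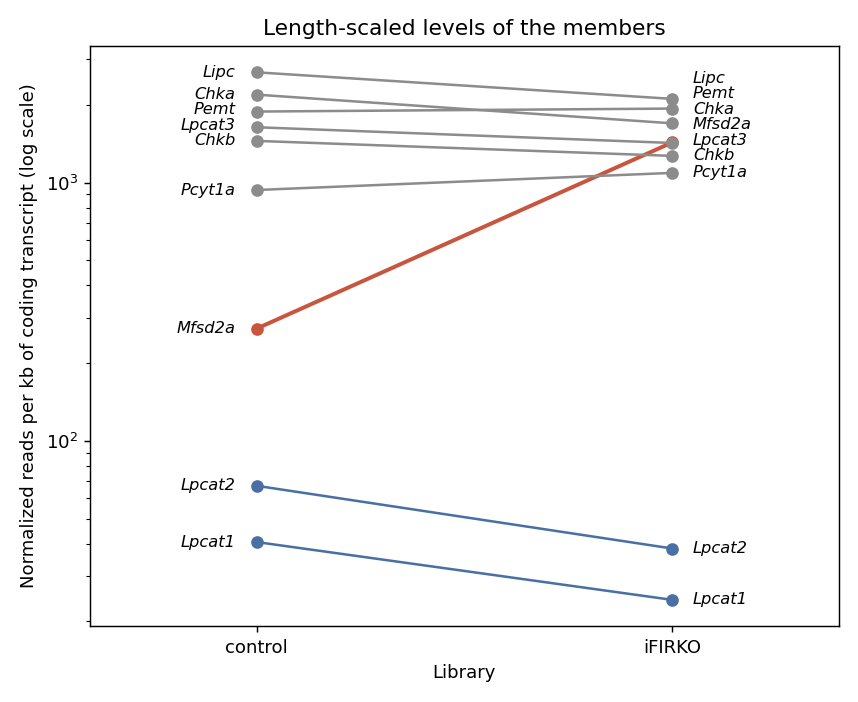
Normalized reads per kilobase of the main coding transcript for the 9 genes in the control and the iFIRKO library, on a log axis, 1 point per library, with labels on the right spread apart so that they can be read. The *Mfsd2a* line climbs from 272 to 1430, from below *Pcyt1a* to beside *Lpcat3*, and crosses the lines of *Pcyt1a*, *Chkb* and, narrowly, *Lpcat3*.

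MFSD2A carries polyunsaturated acyl chains, and *Mfsd2a* is a known target of the nuclear receptor PPARα, so lists of both were set beside it. In polyunsaturated fatty acid supply none of 11 tested genes was called (median log2 fold 0.10). *Fabp1*, the liver fatty acid binding protein, had 77132 and 109348 normalized reads (0.50), and it also counts among the PPARα targets.

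Of 18 PPARα targets 17 were tested, 7 were higher and none was lower, with a median log2 fold of 0.50, while 4.46% of all tested genes were higher. Like the other lists, this one was written with earlier results of these data known, so nothing is read from this comparison. A part of PPARα in the level of *Mfsd2a* was not tested. Of the 17, 15 had a log2 fold above 0 and 2 below. The 2 below were *Ehhadh*, with 92004 and 71019 normalized reads (-0.37), and *Pdk4*, with 1036 and 889 (-0.22). The largest fold was that of the fatty acid omega-hydroxylase *Cyp4a14*, with 24429 and 53514 normalized reads (1.13), followed by the acyl-CoA thioesterase *Acot2* (0.91), the peroxisomal thiolase *Acaa1b* (0.84), the thioesterase *Acot1* (0.74) and the lipid droplet coat gene *Plin2* (0.71). The log2 fold of *Mfsd2a* exceeded that of each of these genes. *Ppara* itself had 1908 and 2066 (0.11).

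Among 15 nuclear receptors and SREBPs of lipid metabolism 1 was higher and 1 lower (median log2 fold -0.05). The shares over all tested genes were 4.46% higher and 7.28% lower. *Pparg*, the adipogenic receptor, had 358 and 677 normalized reads (0.91), and *Nr0b2*, the corepressor SHP, had 1480 and 861 (-0.78). *Hnf4a* had 29516 and 28673 (-0.04), and the carbohydrate response factor *Mlxipl* had 21448 and 15805 (-0.44).

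**Figure D5:**
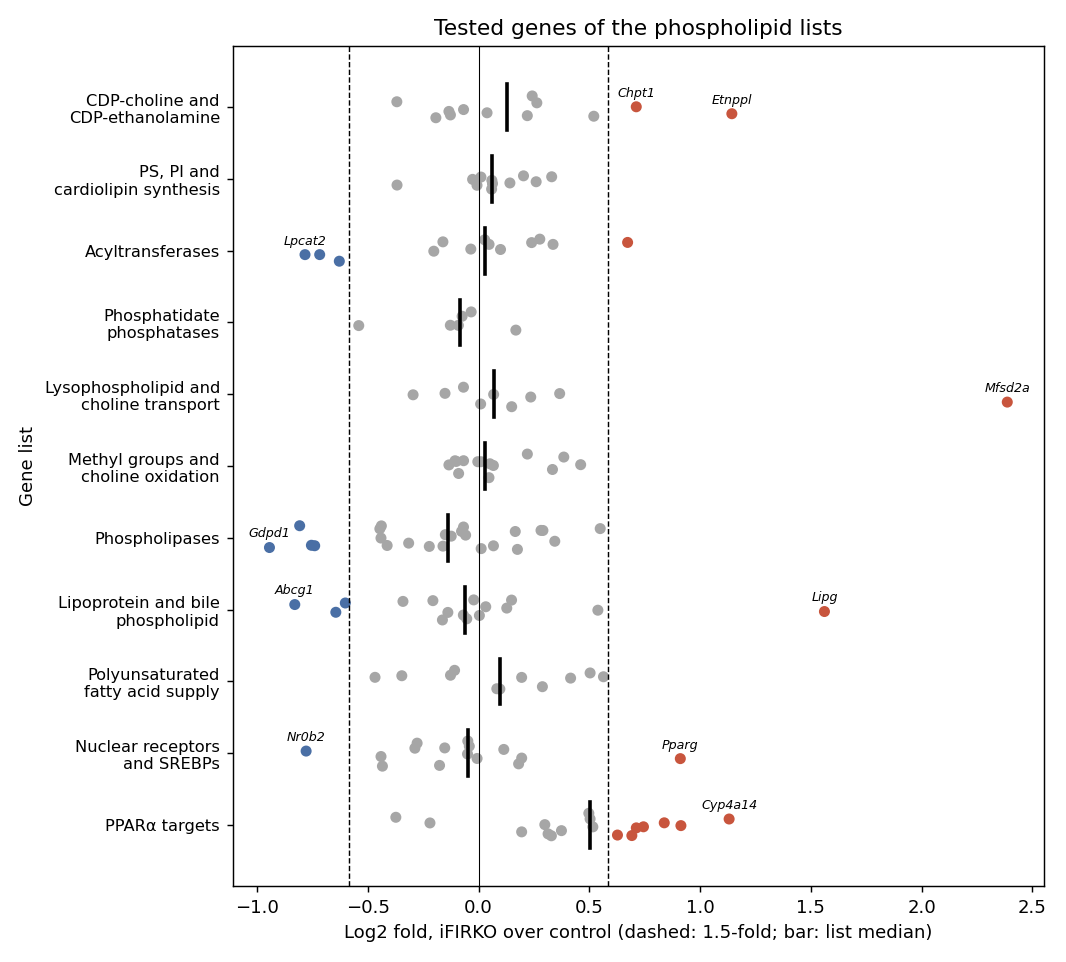
Log2 fold of each tested gene in 11 lists, with the list median as a bar, dashed lines at 1.5-fold, and genes past it in red (higher) or blue (lower). *Mfsd2a* at 2.39 lies farthest to the right, and the PPARα targets have the highest median, 0.50.

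The study addressed miR-144-3p in serum extracellular vesicles, so its seed was searched in the longest annotated 3′UTR of each of the 9 genes. The mature sequence from RefSeq (GRCm38.p6, chr11:78073047-78073066, plus strand) is shown with its seed, bases 2 to 8, in capitals, above the only match among the 9 genes, with the seed match in capitals.
miR-144-3p: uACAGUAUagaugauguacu
Chka site: gaacagacATACTGTgaagtggc

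The match, ATACTGT, began at base 449 of the 962 bases of the *Chka* 3′UTR in ENSMUST00000072055.12. Among 12099 tested genes with a 3′UTR, 13.3% held at least 1 such match, so 1 of 9 is near that share. *Mfsd2a* (391 bases), *Lpcat1* (1884) and *Lpcat2* (1060) held none. A match is a description of letters, no binding was measured in the liver files, and a part of the miRNA in the level of *Chka* was not tested. miR-486a-3p, which the study addressed as well, was not analysed here.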

How the data were processed

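Total liver RNA was made into libraries with the TruSeq stranded mRNA kit and sequenced on a NovaSeq instrument. For each library the authors deposited log2 normalized read counts, with a gene symbol for each row. Some symbols have more than 1 row, since the 53342 rows hold 53241 distinct symbols. The submitters' processing notes name the build mm10, and the aligner, the counter, the annotation and the strand setting are not given in the sources used here, so genes that overlap are uncertain.

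The values above 0 were put on the linear scale by raising 2 to them, and all others were set to 0. The commonest low value, 1.9871 in the control and 2.0133 in iFIRKO, was assumed to be a single read pair. Of low values 45.3% and 46.6% were then whole pairs within 0.01 pair, so read pairs are estimates. For the intervals each value was divided by the worth of a pair and rounded to whole pairs, which were treated as counts. The intervals are therefore approximate. Of all rows 62.2% and 62.1% were listed at 0. Poisson and Clopper-Pearson intervals cover counting error only. The limits in CPM were carried over from a design that had assumed another unit, and 1 CPM is 41.8 normalized reads.

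The 9 genes and the gene lists were chosen with earlier results of these data known, and several lists share genes with the 9. Named genes are the 9, those past 1.5-fold at 10 CPM or more in a list (up to 6 by fold), up to 2 per list by level, and the 3 genes nearest to *Mfsd2a* in log2 fold. *Lpcat4*, *Pla2g4a*, *Gdpd1*, *Abcg1*, *Abcb4*, *Slc44a1*, *Spns1*, *Mfsd2b*, *Cept1*, *Ppara*, *Ehhadh*, *Pdk4*, *Insr*, *Alb*, *Apoa1*, *Emg1*, *Gm44502* and the adipocyte markers were named after their values were seen. Marker lists covered hepatocytes, Kupffer cells and macrophages, neutrophils, B cells, T and NK cells, endothelial cells, stellate cells, cholangiocytes, erythroid cells and adipocytes, and the summed cholangiocyte level was 86.4% of the control.

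Gene positions, exon overlaps, 50-base stretches and transcripts came from GENCODE M21 on GRCm38. Promoters and the mature miRNA came from RefSeq tables on GRCm38.p6, in which the 9 genes all had an entry. The *Lpcat1* promoter stretch shown stops at the GENCODE start and has 216 bases. The fold and interval code was tested on simulated data. Software was scipy 1.17.1, matplotlib 3.10.9, pandas 2.3.3, numpy 2.4.6 and Python 3.11.15. The miRNA sequencing of serum vesicles was not analysed here, and some genes that the naming rule picks are left out of the text.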

Additional observations from a re-analysis of the deposited data

How the results depend on the processing

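No paired analysis was possible because there is only 1 library per genotype, which also means that none could be left out. *Mfsd2a* was called higher under each alternative tried, with a log2 fold from 2.32 to 2.40. The 70 folds of the 9 genes under the alternatives all kept their sign and stayed within their counting intervals. Those from alternatives that change only the minimum repeat the reported fold, since a filter cannot change it. The number of the 9 genes called lower, 2, became 1 with 1 CPM added, and 0 with a minimum of 5 CPM, where *Lpcat1* and *Lpcat2* were not tested, and 0 with a threshold of 2-fold. Of all tested genes, 597 were called higher and 976 lower. These counts became 371 and 576 with 1 CPM added, 1960 and 2620 with no minimum, 288 and 440 with a minimum of 5 CPM, and 209 and 267 past 2-fold. The median of all tested genes stayed between -0.005 and 0.018 under the scalings and filters tried, and the higher share of called genes was 38.0%, and 36.2% to 43.9% under the alternatives. Of the values for lists, 501 stayed close to the reported value and 33 moved, where a count was taken as close if it changed by no more than 1.5-fold. A reversal of sign was looked for only in medians past 1.5-fold, and none of these reversed. It could not be recorded for counts or for smaller medians. Among the 9 genes, *Lpcat1* and *Lpcat2* had the fewest read pairs.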
